A study of Mus musculus with 8 samples.

Results

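Wnt/beta-catenin target genes are genes whose transcription is driven by the Wnt pathway, and 9 of them are described here as they were measured in newborn mouse brain microvessels: Lef1, Axin2, Nkd1, Apcdd1, Notum, Dkk2, Tnfrsf19, Ppard and Spock2. They are 9 of the 18194 genes with at least 1 probe set annotated to a single symbol, and they carry 23 such probe sets. The genes were chosen by name, with the mutant minus control differences of these same 8 arrays already known. Their differences, and any call made on them, are therefore a description of these arrays and not independent evidence about the pathway. One further probe set, 1447902_at, is annotated both to Ppard and to another gene. It was left out, and it lay under the filter given next on most arrays, between 3.64 and 4.11 in mutants and between 3.44 and 4.02 in controls on the log2 scale.

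The mutant group was 4 brains at postnatal day 1 with a Pdgfrb allele that encodes the D849V substitution, a receptor that is active without its ligand, and the control group was 4 wild-type brains of the same age. All mice were of a mixed 129S/J background. The labels place the active receptor in pericytes and do not say whether 1 or both copies of the gene carried the substitution. Microvessel pieces with their pericytes attached were captured with magnetic beads that carry an antibody against the endothelial protein PECAM, and each brain gave 1 array. Values are log2 expression values made with GCRMA and run from 2.18 to 16.49. A probe set was tested when it exceeded 4 on at least 4 of the 8 arrays, which 22310 of 45101 did. No batch, litter or scan time was available, so none could be examined.

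Canonical Wnt signalling starts when a Wnt ligand binds a Frizzled receptor and its LRP co-receptor. The cytoplasmic complex that otherwise destroys beta-catenin is then switched off, and beta-catenin enters the nucleus, where it joins TCF/LEF factors and turns on target genes. In the brain this signal acts in endothelial cells, where vessel ingrowth and the blood-brain barrier depend on it. Many targets feed back on the pathway and damp it, so their transcripts are often read as a gauge of its activity.

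The upstream sequences of the 4 genes with a called probe set are shown first, because TCF/LEF factors bind DNA with a short core sequence. The 4 were picked by their own differences, and whether TCF/LEF binding had a part in those was not tested. Each run holds the 250 bases before a start site, 5′ to 3′ on the strand of the gene, from RefSeq (GRCm38.p6). Capitals mark the core written as CTTTGAT or CTTTGAA, or on the other strand as ATCAAAG or TTCAAAG, which do not overlap one another here. The run of Tnfrsf19 is added because it is the other one with a match.
Lef1, chr3:131110047-131110296, plus strand: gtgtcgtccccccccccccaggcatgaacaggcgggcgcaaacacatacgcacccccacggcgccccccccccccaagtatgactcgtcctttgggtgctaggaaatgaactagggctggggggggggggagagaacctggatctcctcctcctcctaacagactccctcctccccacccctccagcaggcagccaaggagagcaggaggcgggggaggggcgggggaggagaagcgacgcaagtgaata
Nkd1, chr8:88527383-88527632, plus strand: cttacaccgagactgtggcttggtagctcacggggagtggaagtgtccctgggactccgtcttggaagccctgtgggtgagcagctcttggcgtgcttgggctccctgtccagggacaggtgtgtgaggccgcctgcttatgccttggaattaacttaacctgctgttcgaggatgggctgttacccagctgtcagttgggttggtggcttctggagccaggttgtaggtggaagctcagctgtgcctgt
Ppard, chr17:28232504-28232753, plus strand: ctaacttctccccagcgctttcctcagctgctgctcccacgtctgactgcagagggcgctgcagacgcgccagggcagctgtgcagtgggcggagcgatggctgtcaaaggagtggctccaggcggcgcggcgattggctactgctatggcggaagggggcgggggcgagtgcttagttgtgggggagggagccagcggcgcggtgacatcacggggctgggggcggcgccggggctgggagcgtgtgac
Spock2, chr10:60106007-60106256, plus strand: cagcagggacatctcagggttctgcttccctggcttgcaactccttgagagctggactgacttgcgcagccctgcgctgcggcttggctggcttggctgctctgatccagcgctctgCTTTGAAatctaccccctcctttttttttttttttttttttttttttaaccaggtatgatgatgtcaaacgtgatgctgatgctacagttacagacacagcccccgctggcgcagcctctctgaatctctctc
Tnfrsf19, chr14:61037988-61038237, minus strand: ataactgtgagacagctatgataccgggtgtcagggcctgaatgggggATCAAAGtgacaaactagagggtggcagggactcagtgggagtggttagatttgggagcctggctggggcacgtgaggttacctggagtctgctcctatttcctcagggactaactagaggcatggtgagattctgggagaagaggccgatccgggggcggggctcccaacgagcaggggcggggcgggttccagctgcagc
The table held upstream sequences for 7 of the 9 genes, at 11 start sites; Apcdd1 and Notum had none. Spock2 matched once, 133 bases before its start, and Tnfrsf19 once, 202 bases before the second of its start sites. The other 9 windows, all 4 of Lef1 among them, held no match. Of all 32851 windows of this length, 7.48% held at least 1 match. A match is a run of letters and not a shown binding site, and a window without one says nothing of binding elsewhere.

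Transcripts of 4 target genes were lower in mutant than in control microvessels on their brightest probe set: Nkd1 was 1.70-fold lower, Ppard 1.56-fold, Spock2 1.53-fold and Lef1 1.44-fold. Notum (1.77-fold) and Dkk2 (1.71-fold) differed by as much, but with more spread between arrays, and were not called. Axin2, Apcdd1 and Tnfrsf19 differed by less. No probe set of the 9 genes was called higher.

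Of the 23 probe sets, 18 passed the filter, all of them above it on every array, so that none entered through 1 group alone. In limma's test, adjusted by the Benjamini-Hochberg method over all 22310 probe sets, 4 of the 18 were called lower in mutants and 0 higher, and 10 had an unadjusted p under 0.05, against 16.3% of all tested probe sets (3647 of 22310). Of all tested probe sets, 0.78% were called lower, 1.85% higher and 2.63% in either direction. The difference was negative in 17 of the 18, against 64.6% of all tested probe sets, and its median was -0.32, against -0.08. All 4 mutant arrays lay under all 4 control arrays in 10 of the 18, against 7.99% of the table (3.27% lay wholly above). Since the genes were chosen with this contrast known, these shares are given side by side and nothing is read from them. Of the calls over the whole table, 70.3% were higher in mutants, 85.4% when the median of every array was set to the same value, and 98.7% with the endothelial shift described further on.

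**Figure D1:**
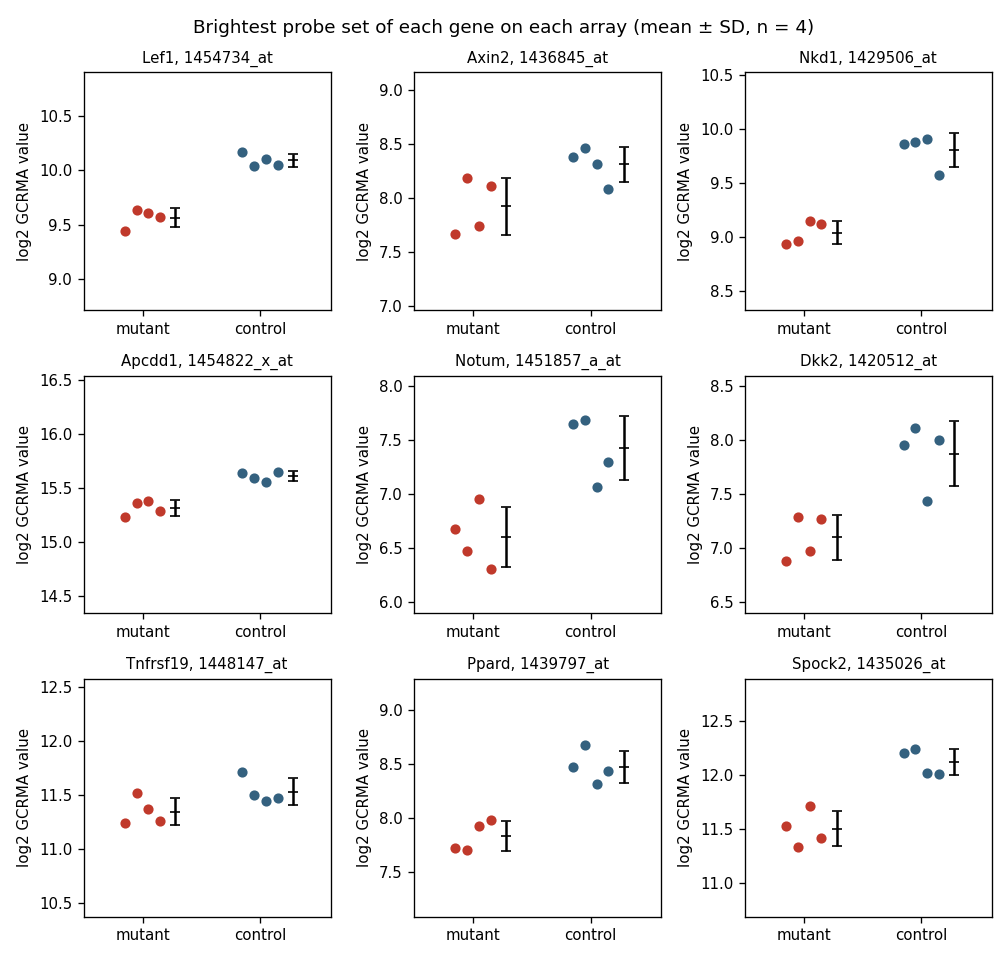
Log2 GCRMA values of the brightest probe set of each of the 9 genes on the 4 mutant (red) and 4 control (blue) arrays, with mean and SD in black; every panel spans the same number of log2 units. Mutant and control points are apart for Lef1, Nkd1, Apcdd1, Notum, Dkk2, Ppard and Spock2 and mix for Axin2 and Tnfrsf19.

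Lef1 encodes the nuclear partner of beta-catenin and is itself induced by the pathway. Its brighter probe set, 1454734_at, read 9.44, 9.64, 9.61 and 9.57 in mutants and 10.17, 10.04, 10.10 and 10.05 in controls. Every mutant value lay below every control value, by at least 0.40, and both groups were tight. The difference was -0.53 (SE 0.0829, limma adjusted p = 0.0128). The dimmer probe set of Lef1, 1421299_a_at, read 5.66, 5.98, 5.49 and 5.004 in mutants and 7.45, 5.64, 5.72 and 5.50 in controls. Its mean difference of -0.55 is near that of the brighter one, but control array 1 alone stands high and the other control values lie among the mutant values. The 95% interval ran from -1.55 to 0.46 (limma adjusted p = 0.563).

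Feedback inhibitors inside the cell are Axin2, a scaffold of the complex that destroys beta-catenin, and Nkd1, which binds the signal transducer Dishevelled. Axin2 read 7.66, 8.19, 7.73 and 8.11 in mutants and 8.38, 8.46, 8.31 and 8.08 in controls on probe set 1436845_at. Mutant arrays 1 and 3 read below every control, while mutant arrays 2 and 4 came within the range of the controls, so the groups overlap by 0.10. The difference of -0.39 had a 95% interval from -0.73 to -0.04 and was not called (SE 0.149, limma adjusted p = 0.258). The other probe set of Axin2, 1421341_at, stayed at the bottom of the scale, 2.19, in all 8 samples and gives no information.

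Nkd1 had the smallest adjusted p of the 18. Its brightest probe set, 1429506_at, read 8.94, 8.96, 9.15 and 9.12 in mutants and 9.86, 9.88, 9.91 and 9.57 in controls. The groups are 0.42 apart even with control array 4, the lowest control. The difference was -0.76 (SE 0.107, limma adjusted p = 0.00710). The other probe sets of the gene showed smaller differences. Probe set 1417278_a_at differed by -0.23 (95% interval -0.79 to 0.33), with mutant array 1, at 8.76, above all controls. Probe set 1440446_at differed by -0.16 (-0.35 to 0.04), with groups 0.01 apart. The last one, 1429507_at, stayed between 3.02 and 3.11 on all arrays, under the filter. The tested probe sets of Nkd1 thus spanned 0.61 in their differences, the widest span of the 5 genes with several tested probe sets, against 0.02 for Lef1, 0.21 for Apcdd1, 0.34 for Spock2 and 0.39 for Tnfrsf19. The files do not say which transcripts each probe set reads.

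Apcdd1 is a membrane protein that binds Wnt ligands and their co-receptors and restrains signalling at the cell surface. It had 6 probe sets, 5 of them bright. The brightest, 1454822_x_at, read 15.23, 15.36, 15.38 and 15.29 in mutants and 15.63, 15.59, 15.55 and 15.65 in controls. The groups are separate but close, 0.17 apart, and the difference was -0.29 (SE 0.0781, 95% interval -0.47 to -0.11, limma adjusted p = 0.120). Probe sets 1449070_x_at and 1418382_at gave much the same, -0.32 (limma adjusted p = 0.162) and -0.31 (limma adjusted p = 0.220), with no overlap of groups. Probe sets 1437604_x_at (-0.26) and 1418383_at (-0.11) overlapped between groups. On the last of these, mutant array 4 was lowest, at 11.55, and control array 1 highest, at 12.89, while the other arrays lay between 12.06 and 12.47. The dim probe set 1443639_at passed 4 on control array 1 alone, at 5.50, and was not tested. The suffix x marks probe sets that may also read other transcripts, and probe sets of 1 gene are not independent of each other.

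The secreted regulators are Notum, an enzyme that strips the lipid from Wnt proteins and so inactivates them, and Dkk2, which binds the LRP co-receptors. Notum read 6.67, 6.47, 6.95 and 6.30 in mutants and 7.64, 7.68, 7.07 and 7.29 in controls on its only probe set, 1451857_a_at. All mutant arrays lay below all controls, with 0.12 between the nearest ones. Its difference of -0.82 (SE 0.187, 95% interval -1.25 to -0.39) was the largest of the 18, and it missed the threshold (limma adjusted p = 0.0711). Dkk2 read 6.88, 7.29, 6.97 and 7.27 in mutants and 7.95, 8.12, 7.43 and 7.999 in controls on probe set 1420512_at. Control array 3 came closest to the mutants and the groups were 0.15 apart. The difference was -0.77 (SE 0.172, 95% interval -1.17 to -0.38, limma adjusted p = 0.0645). With 1 probe set per named gene, the brightest, 11446 genes were tested, of which 1.92% were called lower. Both genes then passed, at limma adjusted p of 0.0452 for Notum and 0.0411 for Dkk2, and 6 of the 9 genes were called.

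Tnfrsf19, also called TROY, is a receptor of the tumour necrosis factor family that the pathway induces. Its brightest probe set, 1448147_at, read 11.24, 11.52, 11.38 and 11.26 in mutants and 11.72, 11.50, 11.44 and 11.48 in controls. The ranges overlap, and the difference of -0.18 was not called (95% interval -0.42 to 0.05). Probe set 1425212_a_at gave the only positive difference of the 18, at 0.20 (95% interval -0.20 to 0.61), with mutant array 2 highest at 7.001. The third, 1415921_a_at, stayed under the filter, between 2.75 and 3.22.

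Ppard encodes the fatty acid-sensing nuclear receptor PPAR delta, and Spock2 encodes testican-2, a secreted proteoglycan. Ppard read 7.72, 7.70, 7.92 and 7.98 in mutants and 8.47, 8.67, 8.31 and 8.43 in controls on probe set 1439797_at. The groups were 0.33 apart and the difference was -0.64 (SE 0.113, limma adjusted p = 0.0236). Its other probe set, 1425703_at, stayed at the bottom of the scale, between 2.18 and 2.21. Spock2 read 11.54, 11.34, 11.72 and 11.42 in mutants and 12.21, 12.25, 12.02 and 12.01 in controls on probe set 1435026_at. The groups were 0.30 apart and the difference was -0.62 (SE 0.111, limma adjusted p = 0.0257). On the dimmer probe set 1450451_at the groups overlapped by 0.51. There mutant array 4, at 6.43, was lowest and control array 1, at 8.25, highest, and the difference was -0.28 (95% interval -1.04 to 0.49).

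**Figure D2:**
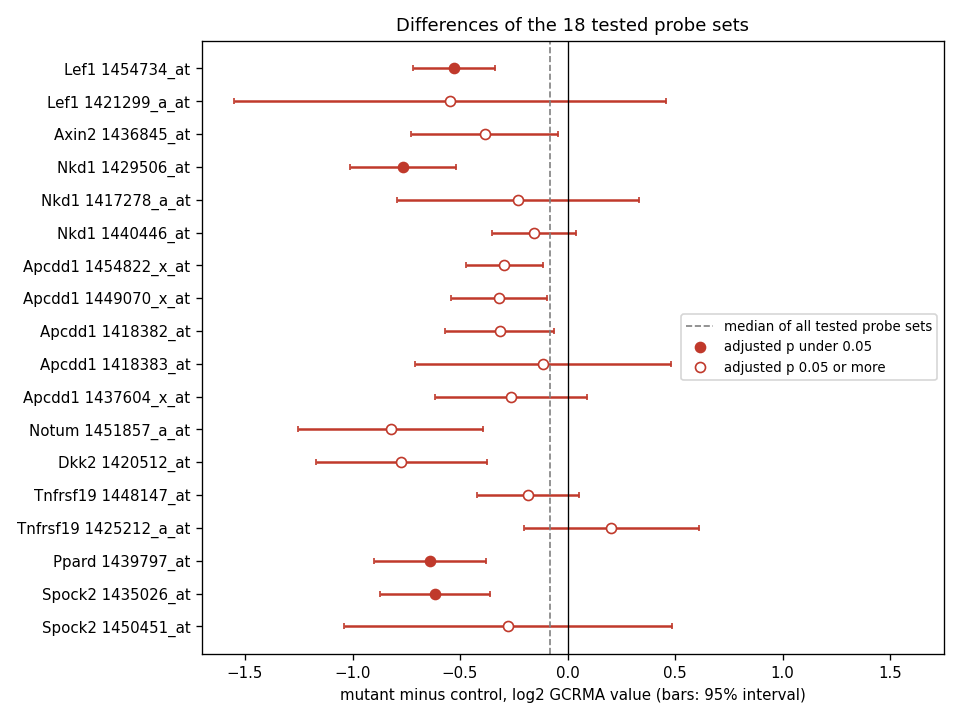
Mutant minus control differences of the 18 tested probe sets in log2 units, with 95% intervals from limma; filled points had an adjusted p under 0.05 over all tested probe sets, and the dashed line is the median of all tested probe sets, -0.08. The 4 filled points belong to Lef1, Nkd1, Ppard and Spock2, and 1 point, of Tnfrsf19, lies above 0.

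The calls depended on how arrays were scaled. When the median of every array was set to the same value, the median difference over all probe sets moved to 0.00 and 1 of the 4 calls held, that of Nkd1 (-0.68, limma adjusted p = 0.0312). Lef1 then differed by -0.45 (limma adjusted p = 0.0524), Ppard by -0.55 (0.0991) and Spock2 by -0.53 (0.117), while 17 of the 18 differences were still negative. With 1 array left out, between 2 and 3 of the 9 genes were called. Nkd1 was called each time. Lef1 was not without mutant array 3 (limma adjusted p = 0.0551) or control array 3 (0.0515). Ppard was called only without mutant array 4 (0.0332) or control array 3 (0.0425), and reached 0.0759 at most. Spock2 was called only without mutant array 3 (0.0350), and reached 0.0769 at most. Of the 20 alternatives tried, the call was lost in 3 for Nkd1, in 7 for Lef1, in 12 for Ppard and in 13 for Spock2, and their differences stayed negative in each. One of these settings takes the mean of all probe sets of a gene, so it is not a value of the called probe set. Probe sets under the filter enter that mean too, among them 1425703_at of Ppard (difference -0.0067) and 1429507_at of Nkd1 (-0.0011). Under this setting Nkd1 differed by -0.29 (limma adjusted p = 0.108), Lef1 by -0.54 (0.255) and Spock2 by -0.45 (0.251), none of them called. Ppard (-0.32, 0.0415), Dkk2 (-0.77, 0.0396) and Notum (-0.82, 0.0449) were called.

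**Figure D3:**
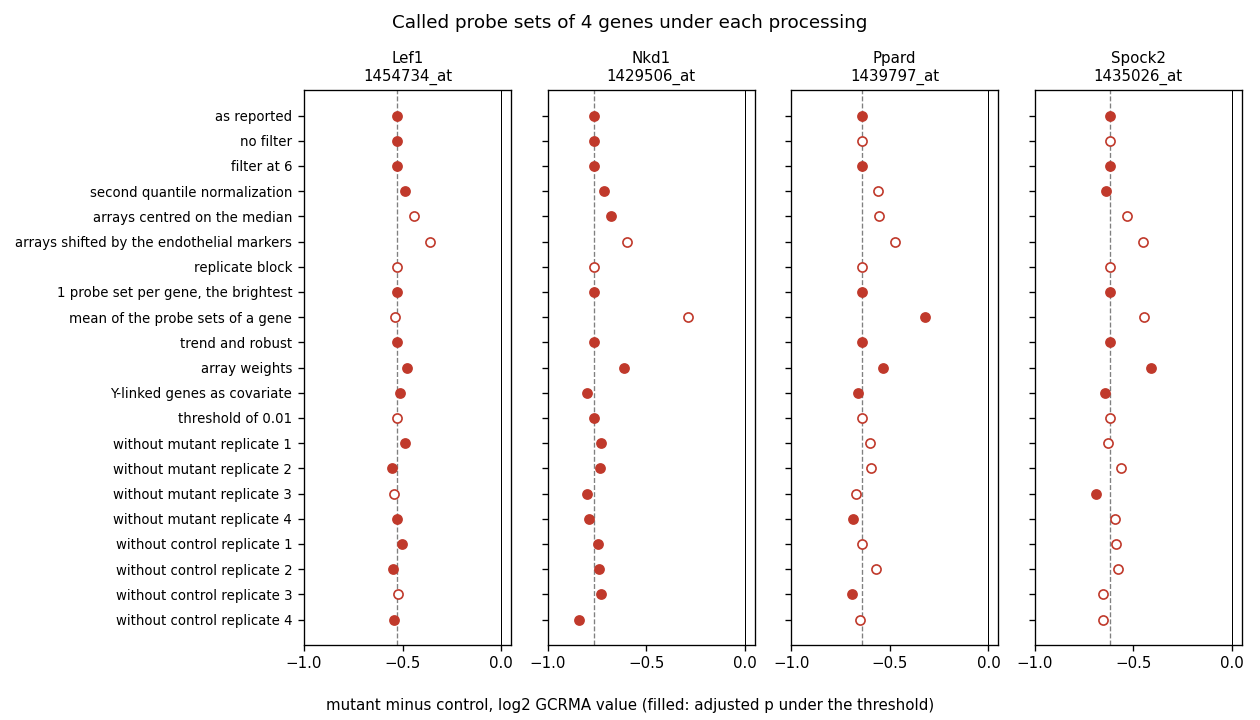
Mutant minus control differences (log2) of the 4 called probe sets as reported and under 20 other settings. One setting instead averages all probe sets of the gene, those under the filter included. Filled points passed the threshold of their setting, and the dashed line marks the reported value. All points lie below 0, and Nkd1 lost its call under 3 settings.

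Cell makeup was read from markers on the same arrays; in bulk RNA, fewer cells of a type and less RNA per cell cannot be told apart. All 15 endothelial markers passed the filter and none was called in limma's test over all probe sets (14 negative, 1 positive, median -0.14). Of all tested probe sets, 64.6% had a negative difference. Mutants lay wholly below controls for 3 of the 15 markers, against 7.99% of all tested probe sets. The angiopoietin receptor gene Tek averaged 12.43 ± 0.20 in mutants and 12.89 ± 0.10 in controls (mean ± SD of 4 arrays), with no overlap of groups and a difference of -0.46 (limma adjusted p = 0.110). The adhesion gene Esam differed by -0.11, with overlapping groups. The mean of these markers, each centred on its own mean over the 8 arrays, ran from -0.50 to 0.09 on mutant arrays and from -0.10 to 0.33 on control arrays. Mutant array 4 was lowest, at -0.50, and control array 1 highest, at 0.33. The same arrays bounded the mean of the 18 target probe sets, which was -0.36 on mutant array 4 and 0.43 on control array 1. The other mutant arrays read between -0.18 and -0.11 and the other controls between 0.05 and 0.21, so the groups did not overlap. When every array was shifted by its endothelial mean, the median difference over all probe sets was 0.08 and that of the 18 probe sets was -0.15. Of the 18, 15 were negative, and none of the 9 genes was called (limma, all probe sets). Differences shrank and SEs rose for the 4 called probe sets. Lef1 differed by -0.36 (SE 0.202, from 0.0829) and Nkd1 by -0.60 (0.218, from 0.107). Ppard differed by -0.47 (0.224, from 0.113) and Spock2 by -0.45 (0.192, from 0.111). What part endothelial content had in the lower target values was not tested. The endothelial shift left 6 calls in the lower direction over the whole table. Without mutant array 4, 3 of the 9 genes were called, Nkd1, Ppard and Lef1, and without control array 1, 2 were, Nkd1 and Lef1.

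Markers of microglia moved with the groups. Of 13, 10 were called higher in mutants and none lower, against 1.85% of all tested probe sets called higher. The median difference of these markers was 2.18. Their mean ran from 0.42 to 1.30 on mutant arrays and from -1.52 to -0.53 on control arrays, and none of the 13 lay under the filter throughout a group. Aif1, a microglial calcium-binding protein, rose by 3.31 (SE 0.408, limma adjusted p = 0.00329), the complement gene C1qa by 2.38, the protease gene Ctss by 2.26 and the Fc receptor chain Fcer1g by 2.18. What part this had in the lower values of the target genes was not tested. None of 11 pericyte markers, a list that leaves out Pdgfrb, was called (7 positive, 4 negative, median 0.12). Their differences ran from -0.70 for Notch3 to 0.85 for Higd1b, both named here after their values were seen. The groups of Higd1b did not overlap (limma adjusted p = 0.0643). Rgs5 read 14.59 ± 0.19 in mutant and 14.66 ± 0.14 in control vessels, and Vtn 13.04 ± 0.12 and 12.62 ± 0.23 (mean ± SD of 4 arrays). Of 8 astrocyte and radial glia markers Hopx rose (0.78, limma adjusted p = 0.00860), and of 10 fibroblast markers Twist1 rose (0.46, limma adjusted p = 0.0323). None of 10 neuron, 5 oligodendrocyte, 6 choroid plexus or 2 erythroid genes was called. Among neuron genes Map2 differed by 0.13 and Stmn2 by 0.60, the groups of Stmn2 not overlapping (limma adjusted p = 0.112). Among oligodendrocyte lineage genes Pdgfra differed by -0.14 and Mbp by 0.75, among choroid plexus genes Ttr by 0.03 and Clic6 by -0.67, and among erythroid genes Alas2 by 0.02 and Slc4a1 by 0.18, all with overlapping groups. Pdgfrb itself read 11.56, 12.06, 11.83 and 11.93 in mutants and 12.87, 12.92, 12.80 and 12.82 in controls on its brighter probe set, which was called lower (-1.01, SE 0.117, limma adjusted p = 0.00232). The dimmer probe set differed by 0.09 and was not called (limma adjusted p = 0.887). A change of 1 amino acid does not have to shift the amount of mRNA, so this is no check of the labels.

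**Figure D4:**
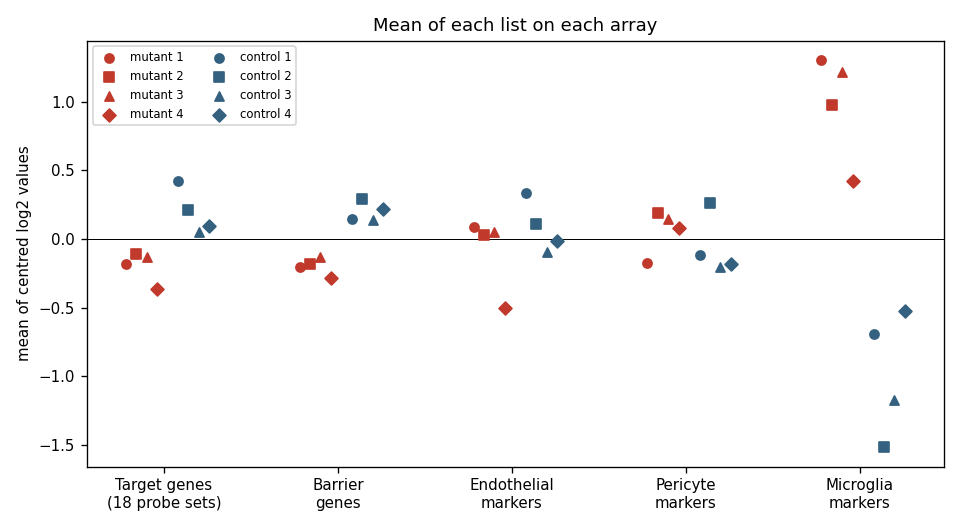
Mean over each list of log2 values centred per probe set, on each of the 4 mutant (red) and 4 control (blue) arrays; marker shapes give the replicate number. Target genes and barrier genes lie below 0 on all mutant arrays and above 0 on all control arrays, and microglia markers are higher on all mutant arrays. Endothelial markers overlap between groups, with mutant array 4 lowest at -0.50. Control arrays 1 (0.33) and 2 (0.11) lie above every mutant array.

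The rest of the pathway was read from 5 further lists, each gene by its brightest probe set. Of 66 genes that passed the filter 3 were called lower and 0 higher, against 0.78% of all tested probe sets called lower. In the fit with 1 probe set per gene, the brightest, 4 genes of these lists were called lower, against 1.92% of all genes in that fit. A negative difference was seen in 51 of the 66, against 64.6% of all tested probe sets. The median was -0.19, against -0.08 over all tested probe sets and -0.11 over the brightest probe sets of the 11446 genes tested. Among 15 other target genes, Tiam1, an exchange factor for the GTPase Rac, fell by 0.45 (SE 0.0924, limma adjusted p = 0.0476), and 11 had a negative difference. Znrf3, a ubiquitin ligase that removes Frizzled receptors and is named here after its value was seen, read 7.65 ± 0.34 in mutants and 8.66 ± 0.45 in controls (mean ± SD of 4 arrays, limma adjusted p = 0.100). Cd44 of the same list, also named after its value was seen, went the other way without overlap of groups. It read 7.52 ± 0.28 in mutants and 6.93 ± 0.20 in controls (mean ± SD of 4 arrays, limma adjusted p = 0.132). Mutants lay wholly below controls for 3 of the 15 genes of this list, against 7.99% of all tested probe sets. Among 17 receptors, Reck, the anchor protein through which endothelial cells sense Wnt7 ligands, fell by 0.71 (SE 0.132, limma adjusted p = 0.0299). Its 4 mutant values and 4 control values did not overlap. Among 6 secreted inhibitors, Sfrp2, which sequesters Wnt proteins, fell by 1.43 (SE 0.224, limma adjusted p = 0.0128).

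None of the 9 ligand and R-spondin genes that passed the filter was called, and 13 of the 23 in that list lay under it on all arrays of both groups. Rspo2, which enhances Wnt signalling and is named here after its value was seen, had the widest difference of the list, -1.53, with overlapping groups (limma adjusted p = 0.118). Wnt5a and Wnt5b read 8.93 ± 0.35 and 6.94 ± 0.38 in mutants and 9.36 ± 0.25 and 7.40 ± 0.43 in controls (mean ± SD of 4 arrays). None of 19 transducers was called, although 18 had a negative difference, against 64.6% of all tested probe sets. Ctnnb1, which encodes beta-catenin, read 14.06 ± 0.12 in mutants and 14.23 ± 0.05 in controls, and the kinase gene Csnk1a1 read 12.37 ± 0.08 and 12.53 ± 0.02 (mean ± SD of 4 arrays). The transcript level of beta-catenin does not measure the protein, which the pathway regulates by its stability.

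Barrier genes of the endothelium gave 5 lower and 0 higher calls among 15, against 0.78% of all tested probe sets called lower. In the fit with 1 probe set per gene, the brightest, 5 barrier genes were called lower, against 1.92% of all genes in that fit. A negative difference was seen in 14 of the 15, against 64.6% of all tested probe sets. The endothelial markers also had 14 negative differences among 15. The median of the barrier genes was -0.33. The arginine transporter Slc7a1 differed by -0.59 (limma adjusted p = 0.0172), the transcription factor Sox17 by -0.48 (0.0323), the amino acid transporter Slc7a5 by -0.50 (0.0434) and the organic anion transporter Slco1a4 by -0.77 (0.0478). With arrays centred on the median none of them was called. Of 3 genes of fenestrated or sprouting endothelium none was called, and Plvap, the protein of fenestral diaphragms, averaged 7.86 ± 0.21 in mutants and 7.95 ± 0.59 in controls (mean ± SD of 4 arrays), and Cd34 read 12.33 ± 0.40 and 12.31 ± 0.30.

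**Figure D5:**
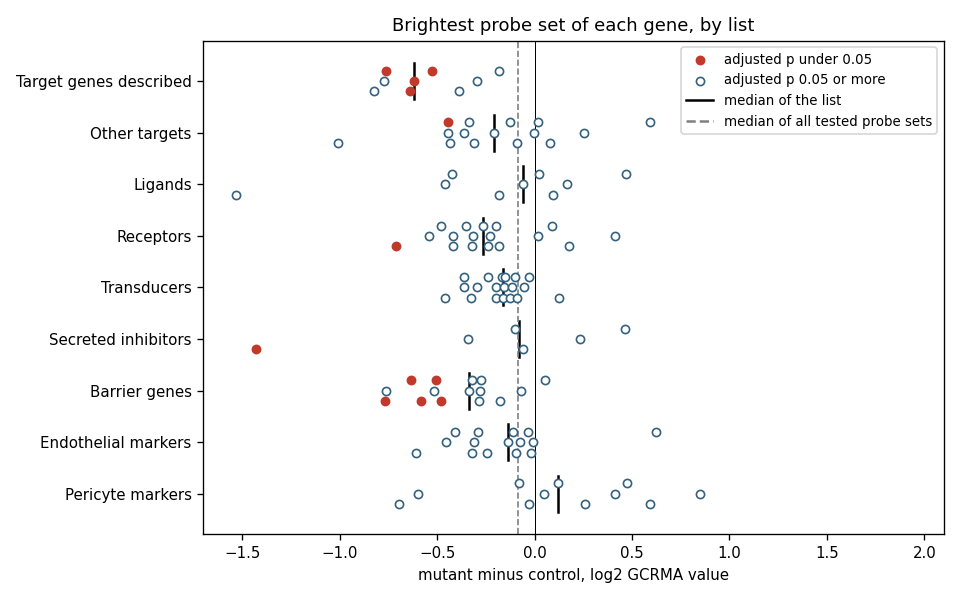
Mutant minus control differences (log2) of the brightest probe set of each tested gene, by list; red points had an adjusted p under 0.05 over all tested probe sets, black bars are list medians, and the dashed line is the median of all tested probe sets, -0.08. Over the brightest probe sets of the 11446 genes tested, the median is -0.11. Called genes stand left of 0 in the target, receptor, secreted inhibitor and barrier lists, and no ligand or transducer is called.

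The 5 genes whose 8 values, centred on the control mean, lay nearest to those of the brighter Lef1 probe set were 2810002D19Rik, Slc25a51, Zdhhc9, Slc39a10 and Pkp4. Their root mean square distances ran from 0.07 to 0.08 log2 units, among 11445 other genes. Of the other target genes, Spock2 came nearest (0.16), followed by Ppard (0.16), Apcdd1 (0.17), Axin2 (0.19) and Nkd1 (0.20). Many other genes were nearer to Lef1 than any of them. Spock2 stood 263 in that order and Nkd1 786. Likeness here mixes the group difference with the spread between arrays and is a description only.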

How the data were processed

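RNA from 8 samples was hybridised to 1-colour Affymetrix arrays, 1 per brain, as biotin-labelled cRNA from 6 ug of total RNA, per the labels' protocols. The authors deposited log2 values per probe set, made with GCRMA per the submitters' processing notes (version not given in the sources used here), a method that adjusts for probe sequence background and normalizes between arrays; the log2 scale was read from the values. Arrays carry no counts, and 4 per group limit the precision. The platform annotation gave 34958 probe sets 1 symbol, 932 several and 9211 none.

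All 22310 probe sets above 4 on at least 4 arrays entered 1 fit across all features (lmFit and eBayes, limma 3.58.1, R 4.3.3; two-sided, no covariates, Benjamini-Hochberg threshold 0.05; intervals are 95%). The fit was run on simulated data with planted changes. Recovery was required only at the largest planted change, which exceeds every difference of the target genes. It therefore says nothing of how well changes of their size are called. The members and gene lists were chosen with earlier results of these data known. Every member is named. From each other list up to 4 called genes with the smallest p are named, or the 2 brightest where none was called. Further genes, named after their values were seen, are marked so in the text. The Y-linked list served only as a covariate. Nothing in the labels says whether brains shared a litter. Alternatives covered the filter, normalization, centring, replicate block, probe set choice, variance model, Y-linked genes, threshold and single arrays left out.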

Additional observations from a re-analysis of the deposited data

Results flagged for a closer look

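A single array stood far from the other 3 of its group in 11 of 132 groups of 4 values examined. For 1 group of normal values, chance flags about 1 in 20. The groups are not independent, since list means and genes of those lists both enter, so nothing is read from the count. The measure is the gap to the nearest array as a share of the range of the group. Among the target genes, control array 1 was high on Lef1 probe set 1421299_a_at (0.885; 7.45 against at most 5.72) and on Apcdd1 probe set 1418383_at (0.849), mutant array 4 was low on the same Apcdd1 probe set (0.832), and control array 4 was low on Nkd1 probe set 1429506_at (0.862; 9.57 against at least 9.86).

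In the other lists, mutant array 4 was low in the mean of the endothelial markers (0.902) and high for Wnt5b (0.905). Mutant array 1 was low for Ctnnb1 (0.900), for the choroid plexus gene Clic6 (0.887) and in the choroid plexus mean (0.886). Control array 2 was low for Clic6 (0.884) and in the astrocyte and radial glia mean (0.915).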

How the results depend on the processing

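The 4 target genes called lower became 3 without a filter (Nkd1, Lef1 and Apcdd1) and 3 with a second quantile normalization (Nkd1, Spock2 and Lef1), 5 with a filter at 6 and with trend and robust settings, 6 with 1 probe set per gene, 3 with the mean of the probe sets (Dkk2, Ppard and Notum) and 4 with the Y-linked genes (seen on 3 mutant and 2 control arrays) as covariate. They became 1 with arrays centred on the median and at a threshold of 0.01, 0 with the endothelial shift and with the replicate block, 7 with array weights, and 2 to 3 with 1 array left out. Array weights called 12% of all 22310 tested probe sets lower, against 0.78% in the reported fit. All counts given for array weights stand beside that share. The 3 called genes of the other Wnt lists became 0 without a filter, with the endothelial shift and at 0.01, 1 with centring, the replicate block and the Y-linked genes, 13 with array weights, and 0 to 2 with 1 array left out. The 5 barrier genes became 2 without a filter and with the second quantile normalization, 0 with centring, the endothelial shift, the replicate block and at 0.01, 3 with the Y-linked genes, and 0 to 2 with 1 array left out. Of all tested probe sets, 586 were called, 303 with the replicate block, 3937 with array weights, 322 at 0.01, and 305 to 520 with 1 array left out. Among the fits with 1 array left out, the lowest of these counts, 305, was that without mutant replicate 3, where Nkd1 and Spock2 were called.

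Differences turned sign in 10 instances, none of them a called probe set. With the endothelial shift these were Nkd1 1440446_at (0.011), Apcdd1 1418383_at (0.054) and Csnk1a1 (0.0079). With array weights they were Apcdd1 1418383_at (0.22), Spock2 1450451_at (0.17) and Tnfrsf19 1425212_a_at (-0.10). With 1 array left out, Apcdd1 1418383_at ran from -0.20 to 0.10 (0.10 without mutant replicate 4 and 0.08 without control replicate 1), and Spock2 1450451_at from -0.43 to 0.0097 (positive without control replicate 1). The mean of the Tnfrsf19 probe sets, with that under the filter included, was 0.013. The cause of the moves under array weights was not tested. Arrays with the same replicate number did not vary together (correlations of deviations -0.11, -0.53, -0.22 and 0.33; 1 of 8 arrays was closest to its own number), so the numbers were not taken as pairs. With the replicate block, which uses up residual degrees of freedom, the differences are the same and only the calls change. Probe sets under the filter are not resolved.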
